A study of Mus musculus with 12 samples.

Results

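The liver makes most of the proteins of blood plasma, and 52 genes for them were followed in the livers of wild-type (WT) mice and of mice that lacked Bmal1 in the liver (KO). The list was drawn up by gene symbol and comprised 13 carriers and binding proteins, 7 acute phase proteins, 4 heavy chains of inter-alpha-inhibitor, 12 genes of fibrinogen, coagulation and fibrinolysis, 5 inhibitors of coagulation and fibrinolysis, and 11 genes of complement and its lectins. All 52 were among the 22322 gene symbols of the deposited tables, and all 52 passed the filter on low values that left 10799 genes for testing (1 or more of the 4 group means had to reach 1 RPKM). RPKM counts the reads on a transcript per kilobase of its length, scaled to the depth of the library. Liver RNA came from 4 groups of 3 mice: WT and KO at circadian time 0 h (CT0) and WT and KO at 12 h (CT12). The mice were males, labelled C57BL/6 and 8 weeks of age, and were kept in 12 h of light and 12 h of darkness and then for 2 days in constant darkness. WT mice carried loxP sites on both sides of exon 8 of both Bmal1 copies, and KO mice carried these alleles together with a CRE recombinase under a liver-specific promoter that the sources do not name. No CRE was stated for WT, so an effect of the recombinase and one of the loss of Bmal1 cannot be told apart. In whole liver, fewer cells of a type and less RNA per cell cannot be told apart either.

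Depth recovered from the low values was 11463307 to 19019056 reads per library. Arntl, the gene for BMAL1, was lower in KO at CT0 by 1.21 on the log2 scale and higher at CT12 by 1.29 (adjusted p = 0.00058 and 6.3e-05). These are values over the whole transcript, which cannot show the floxed exon. Hepatocyte markers summed to between 12100 and 15100 RPKM in the 12 libraries, and 3 of 5 pancreas markers (Cpa1, Cel and Pnlip) were at 0 in all of them. Among the libraries, WT CT0 replicate 1 held the highest value of its group for 36 of the 52 members, KO CT0 replicate 2 for 35, and KO CT0 replicate 1 the lowest for 36. Over all tested genes these libraries held that position for 33.4%, 28.7% and 29.6%. Results for the 52 genes that depend on a library are given with and without it. Single genes outside the list were not followed in this way.

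Plasma proteins fall into functional systems that share the hepatocyte as their source. Albumin, transferrin, transthyretin and the vitamin carriers transport small molecules and metals. Coagulation is a cascade of proteases that ends in the cleavage of fibrinogen to fibrin by thrombin, it is restrained by serpins and by the protein C system, and fibrin is later dissolved by plasmin. Complement marks microbes through C3 and ends in a membrane pore built from C5b to C9. In the acute phase response, cytokines such as interleukin 6 make hepatocytes raise some of these genes (serum amyloid A, orosomucoid, haptoglobin, fibrinogen) and lower others, albumin among them.

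The 52 genes were a large part of the liver transcriptome. They held 19.7% to 22.2% of the summed RPKM of all genes in the 3 WT CT0 libraries, 17.4% to 18.2% at CT12 in WT, and in KO 15.5% to 18.7% at CT0 and 16.1% to 18.1% at CT12. Of the 100 genes with the highest mean RPKM, 24 were on the list, and Alb led all genes in all 12 libraries. The share of Alb alone was 7.11% to 8.06% in WT at CT0, 6.09% to 7.35% in WT at CT12, and in KO 3.79% to 4.74% at CT0 and 3.20% to 3.57% at CT12. The WT and KO ranges of Alb did not overlap at either time. Without Alb the other 51 genes held 12.4% to 14.3%, 10.8% to 11.3%, 11.4% to 13.95% and 12.8% to 14.9% in the same order, so that at CT12 they held a larger share in every KO library than in any WT library. These shares are descriptions without a test.

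**Figure D1:**
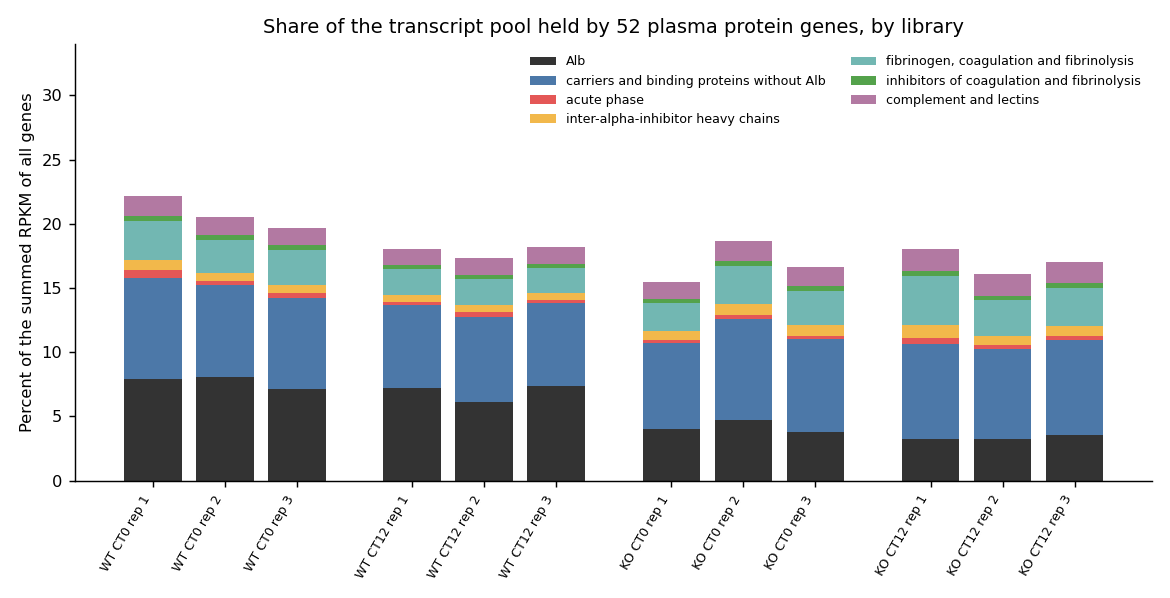
Share of the summed RPKM of all genes (percent, vertical axis) held by the 52 genes in each of the 12 libraries, stacked by role, with Alb drawn apart from the other carriers. The Alb segment is shorter in all 6 KO libraries, from 3.20% to 4.74%, than in all 6 WT libraries, from 6.09% to 8.06%.

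More genes passed between genotypes at CT12 than at CT0, both on the list and over all genes. At CT12, 15 of the 52 genes were higher in KO and 3 were lower (limma, adjusted p under 0.05 over all tested genes), beside 6.97% and 3.49% of all 10799 tested genes. As percentages of the list these were 28.8% and 5.77%. Quantile normalization left 15 higher and 3 lower, and median-of-ratios scaling 10 and 4. Over all genes the split of 753 higher and 377 lower became 550 and 503 with the first and 485 and 591 with the second. Abundant genes passed more often in general: of the 1757 tested genes with a mean at least as high as that of Pros1, the least abundant of the list, 12.9% were higher and 7.74% lower. Of the list, 2 genes were higher in KO at CT0 and 3 lower (3.85% and 5.77%). These stood beside 1.02% and 0.843% of all genes and 2.39% and 2.05% of the abundant ones. Over all tested genes 201 passed at CT0 and 1130 at CT12. Over both times, 9 were higher and 5 lower (17.3% and 9.62% of the list), beside 7.44% and 4.03% of all genes and 15.0% and 8.88% of the abundant ones. Alb, C8g, C9 and Saa4 were called at both CT0 and CT12, and how many of all genes were so was not counted. Under 25 alternative settings, among them each library left out, the CT0 call was lost in 16 for C8g, 7 for C9, 3 for Alb and 0 for Saa4. The median log2 difference between KO and WT was -0.13 over the list and 0.01 over all genes at CT0, and 0.20 and 0.08 at CT12.

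The same list was then compared between the times. From CT0 to CT12, 9 genes of the list fell and 1 rose in WT, beside 7.88% and 3.71% of all genes, and 10.5% of the abundant genes fell. With median-of-ratios scaling 5 genes of the list fell and 2 rose, and over all genes the direction turned, from 401 higher and 851 lower to 736 higher and 576 lower. Of the 52 estimates in WT 45 were negative (86.5%, beside 61.2% of all genes). In KO 1 gene rose and 0 fell, beside 1.10% and 1.32% of all genes, and 20 of the 52 estimates were negative (38.5%, beside 50.3%). With time, 9 genes of the list (17.3%) had an unadjusted p under 0.05 in KO, no more than the 19.9% of all genes, and 22 (42.3%) in WT, beside 26.9%. The interaction, which tests the difference between these changes gene by gene, passed for 3 genes in the positive direction and 0 in the negative, beside 1.07% and 0.417% of all genes and 2.11% and 0.968% of the abundant ones, and 16 (30.8%, beside 12.3% of all genes) had an unadjusted p under 0.05. In all, 22 of the 52 genes passed in at least 1 of the 6 contrasts and 30 in none. That is 42.3%, beside 21.4% of all genes and 35.6% of the abundant ones.

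**Figure D2:**
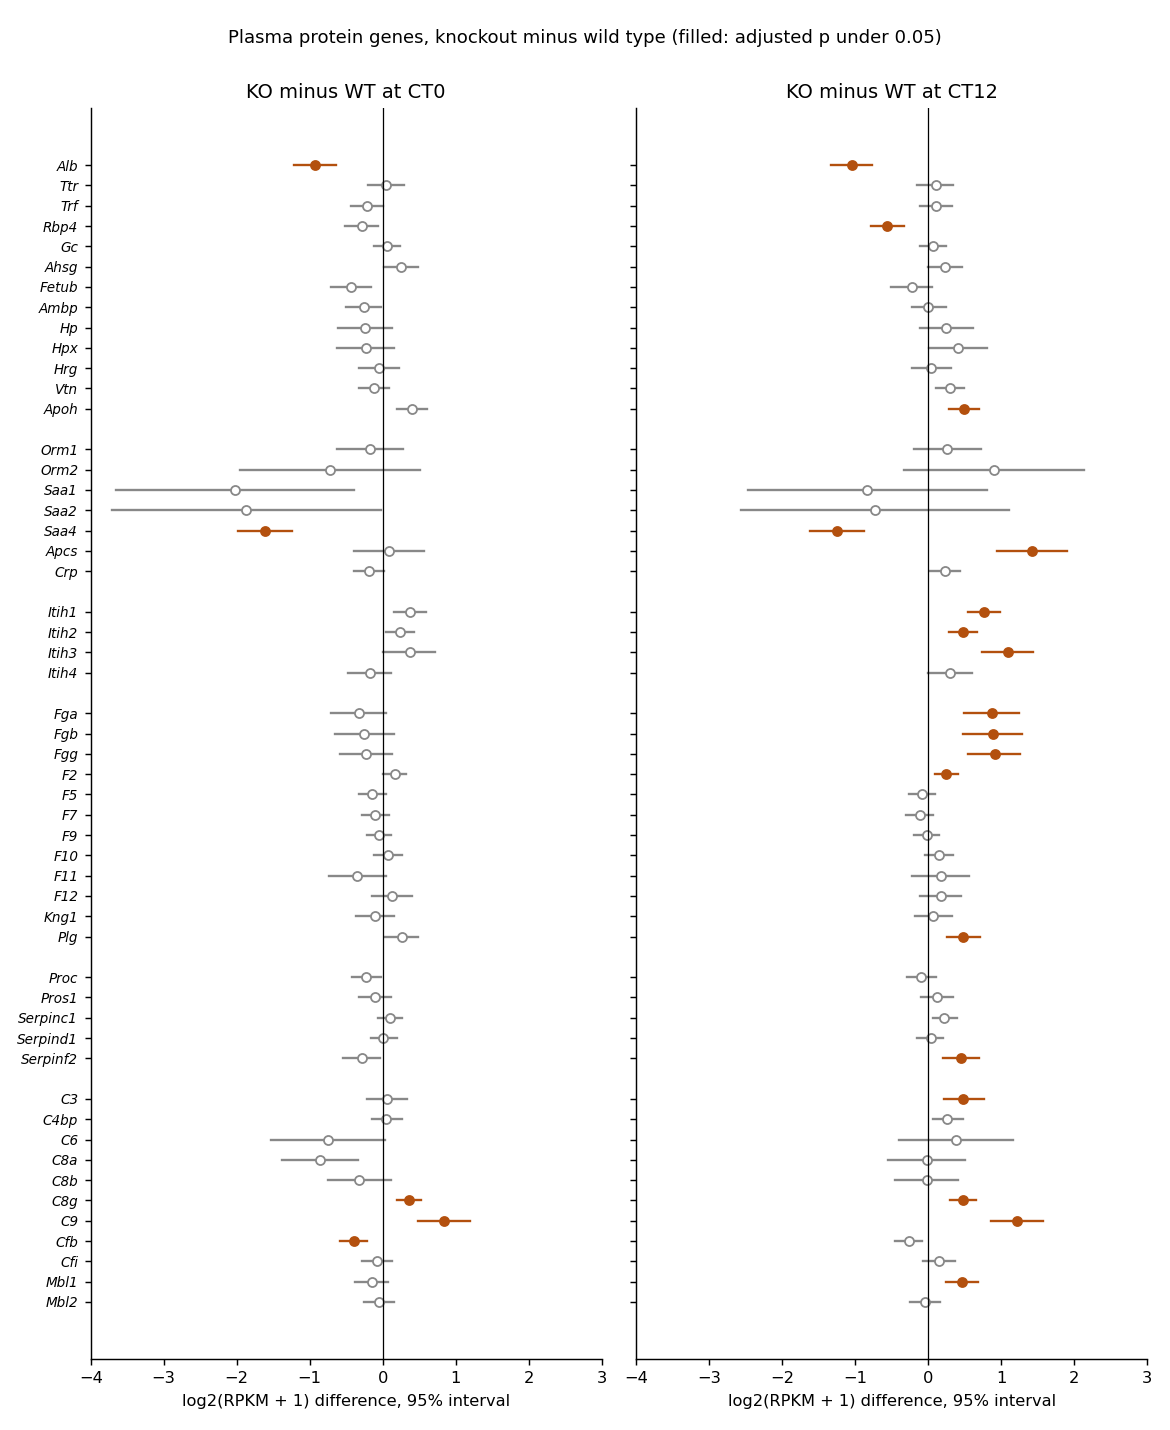
Difference between KO and WT (horizontal axis, log2 of RPKM + 1, with 95% interval) for each of the 52 genes, grouped by role from carriers at the top to complement at the bottom, at CT0 on the left and CT12 on the right. Filled points passed an adjusted p of 0.05: 5 genes at CT0 and 18 at CT12.

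Alb, which encodes albumin, the most abundant protein of plasma, had the largest change in RPKM of the 52 genes. It lies on chromosome 5 (chr5:90889915-90905629, plus strand, NCBIM37). Its RPKM was 37868, 37562 and 32747 in the 3 WT mice at CT0 and 34269, 26609 and 31843 in those at CT12. KO mice stood at 18465, 21242 and 17320.1 at CT0 and 14012, 14227 and 16366 at CT12. Every KO mouse lay below every WT mouse, and the KO mean was 0.527 of the WT mean at CT0 and 0.481 at CT12. The log2 difference was -0.93 (95% interval -1.21 to -0.64, adjusted p = 0.0045) at CT0, -1.05 (-1.34 to -0.77, adjusted p = 0.00030) at CT12 and -0.99 (-1.19 to -0.79, adjusted p = 3.6e-05) over both times. The difference with time was -0.23 in WT and -0.35 in KO, neither past the threshold (adjusted p = 0.30 and 0.17), and the interaction was -0.13 (adjusted p = 0.84). Quantile normalization sets the leading gene of every library to the same value and so returned a difference of 0.00 for Alb by construction. Without a filter on low values the calls at CT0 and CT12 were lost (adjusted p = 0.22 and 0.068), while the call over both times was kept.

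The sequences before the starts of 6 genes are shown, because these genes were among those with the largest differences between genotypes or passed, or neighboured a gene that passed, in the interaction. They are 250 bases up to the start of the RefSeq transcript in GRCm38.p6, 5′ to 3′ on the strand of the gene, at chr5:90460620-90460869 (plus) for Alb, chr7:46732604-46732853 (minus) for Saa4, chr15:6445096-6445345 (plus) for C9, chr3:83025903-83026152 (plus) for Fga, chr3:83049864-83050113 (minus) for Fgb and chr3:83007474-83007723 (plus) for Fgg. Capitals mark matches, on either strand, to 5 motifs: the E-box CACGTG bound by BMAL1 and CLOCK, the D-box TTATGTAA or TTACGTAA bound by DBP and its relatives, TTGCNNAA for C/EBP factors, TTCNNNGAA for STAT factors, and the half-site GTTAAT of HNF1. Matches may share bases, and adjoining capitals can belong to more than 1 motif.
Alb: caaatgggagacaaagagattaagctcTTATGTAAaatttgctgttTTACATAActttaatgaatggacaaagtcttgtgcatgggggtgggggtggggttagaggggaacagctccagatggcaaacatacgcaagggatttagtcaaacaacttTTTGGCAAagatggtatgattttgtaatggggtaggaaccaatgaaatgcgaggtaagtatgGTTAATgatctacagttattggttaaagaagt
Saa4: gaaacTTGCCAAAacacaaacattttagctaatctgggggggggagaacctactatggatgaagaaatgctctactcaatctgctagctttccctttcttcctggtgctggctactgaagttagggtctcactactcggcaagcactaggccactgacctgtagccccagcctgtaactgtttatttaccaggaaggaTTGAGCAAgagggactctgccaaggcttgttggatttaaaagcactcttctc
C9: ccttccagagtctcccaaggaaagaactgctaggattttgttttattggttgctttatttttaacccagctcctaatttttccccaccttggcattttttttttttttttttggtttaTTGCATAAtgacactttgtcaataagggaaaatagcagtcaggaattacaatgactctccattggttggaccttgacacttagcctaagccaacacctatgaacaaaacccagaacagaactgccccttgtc
Fga: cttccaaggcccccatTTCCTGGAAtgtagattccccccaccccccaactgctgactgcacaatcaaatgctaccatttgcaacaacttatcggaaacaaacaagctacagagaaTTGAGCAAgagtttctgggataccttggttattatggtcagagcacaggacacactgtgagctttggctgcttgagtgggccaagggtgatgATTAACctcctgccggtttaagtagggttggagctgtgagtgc
Fgb: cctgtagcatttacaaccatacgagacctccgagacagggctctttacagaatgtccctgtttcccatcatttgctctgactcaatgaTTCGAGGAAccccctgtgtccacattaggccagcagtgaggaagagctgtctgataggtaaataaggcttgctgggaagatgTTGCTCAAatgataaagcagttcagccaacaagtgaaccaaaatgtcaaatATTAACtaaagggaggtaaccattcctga
Fgg: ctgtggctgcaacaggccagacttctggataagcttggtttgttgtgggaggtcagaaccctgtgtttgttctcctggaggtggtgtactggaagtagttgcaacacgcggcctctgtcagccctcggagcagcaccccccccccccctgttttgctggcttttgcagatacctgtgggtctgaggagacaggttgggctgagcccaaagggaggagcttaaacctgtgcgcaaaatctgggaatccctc

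The Alb sequence held 2 matches to the D-box, starting 223 and 204 bases before the start, 1 to the C/EBP motif at 94 bases and 1 to the HNF1 half-site at 32 bases. DBP takes its name from the D element of the albumin promoter. Where that element lies in the printed sequence was not examined, so the 2 matches are not to be read as it. A promoter entry was found for 43 of the 52 genes. A D-box lay in the 250 bases of 1 of these 43 genes (Alb) and of 0.931% of all 32851 promoter entries of the same length. The E-box lay in 0 of the 43 and in 6.02% of all entries. The C/EBP motif lay in 16 of the 43, among them Saa1, Saa2, Saa4, C3, C9, Fga and Fgb, and in 9.56% of all entries. The STAT motif lay in 7 (Apcs, C8a, F9, Fga, Fgb, Itih4 and Pros1) and in 7.02%, and the HNF1 half-site in 9 and in 6.43%. Fga and Fgb each held 1 match to the C/EBP, STAT and HNF1 motifs, and the Fgg sequence held none of the 5. Such a match describes the letters of this window and says nothing about binding.

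Of the other 12 carriers, few changed. Rbp4, which carries retinol, was lower in KO at CT12 by 0.57 (adjusted p = 0.0042) and over both times by 0.43 (adjusted p = 0.0025). In WT it rose from 692 RPKM at CT0 to 910.1 at CT12 (log2 difference 0.40, adjusted p = 0.031), and it was the only gene of the list to rise with time in WT. That rise did not pass when any 1 of the 6 WT libraries was left out, or without a filter. Fetub, the fetuin that inhibits the protease ovastacin, was lower in KO over both times by 0.33 (adjusted p = 0.033), a call lost without any 1 of 8 libraries (each WT CT0 library, WT CT12 replicates 1 and 2, KO CT0 replicates 1 and 3, and KO CT12 replicate 3) or without a filter. Apoh, which binds phospholipids, was the carrier that rose. It stood at 1528.8 ± 137 RPKM (SD, n = 3) in WT and 2022 ± 140 in KO at CT0, and at 1368 ± 51.5 and 1929 ± 105 at CT12, with a log2 difference of 0.45 over both times (adjusted p = 0.00092) and 0.49 at CT12 (adjusted p = 0.0052, or 0.063 with quantile normalization).

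The remaining transporters did not pass between genotypes. Gc, the vitamin D carrier that belongs to the albumin family and lies on chromosome 5 as Alb does, differed by 0.06 over both times (95% interval -0.07 to 0.19), and the thyroid hormone carrier Ttr by 0.07 (-0.10 to 0.25). Trf, the iron carrier transferrin, differed by -0.06 (-0.21 to 0.10). Ahsg, the fetuin beside Fetub, differed by 0.24 (0.08 to 0.40, adjusted p = 0.062). Trf fell with time in WT by 0.38 (adjusted p = 0.032), from 11716 ± 794 to 9027 ± 423 RPKM. That call was lost without any 1 of the 6 WT libraries and with quantile (-0.10, adjusted p = 0.60) or median-of-ratios scaling (-0.27, adjusted p = 0.12).

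**Figure D3:**
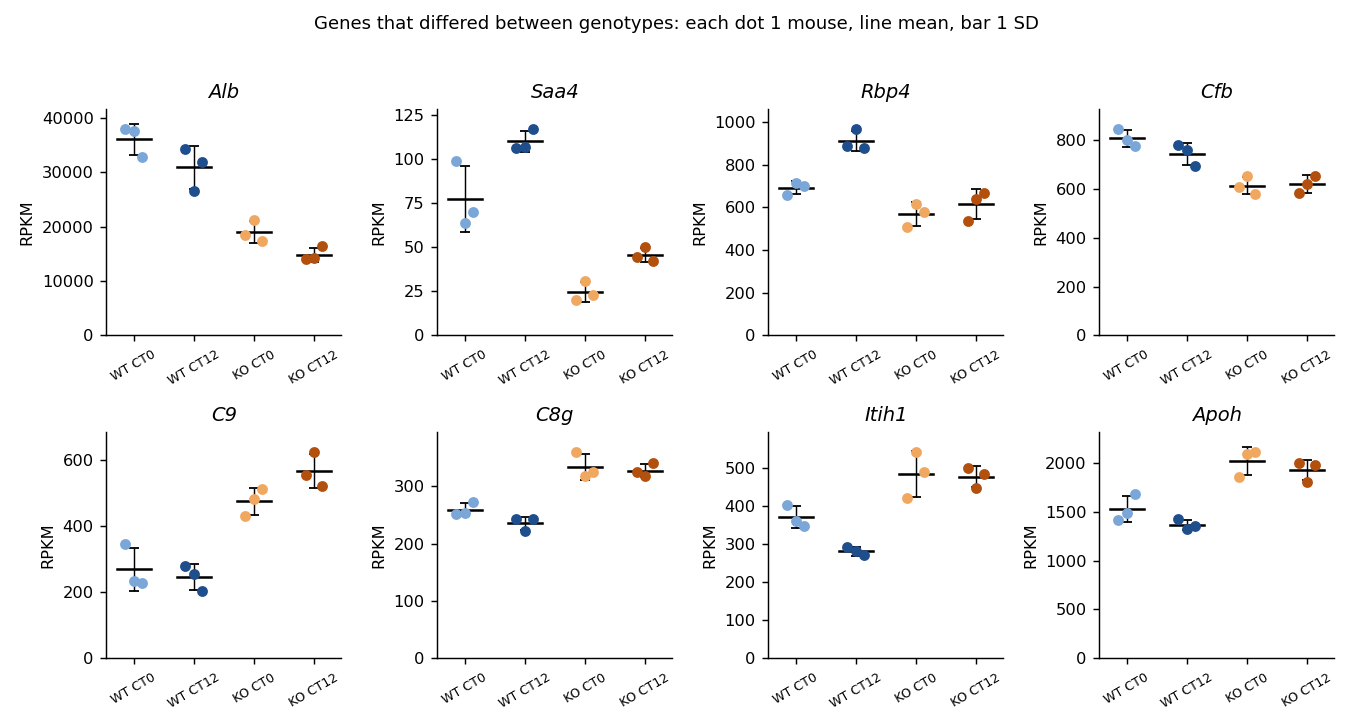
RPKM (vertical axis, starting at 0) of Alb, Saa4, Rbp4, Cfb, C9, C8g, Itih1 and Apoh in the 4 groups, with a dot per mouse, a line at the mean and a bar of 1 SD. Alb and Saa4 lie lower in all KO mice than in all WT mice, and C9, C8g, Itih1 and Apoh higher.

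Saa4 was the acute phase gene with the largest called difference over both times. It encodes the serum amyloid A that is made constitutively and travels on high-density lipoprotein, and it lies at chr7:53983387-53987913 (minus strand, NCBIM37), beside Saa1. In WT it was 98.8, 63.8 and 70.0 RPKM at CT0 and 106.5, 106.8 and 116.9 at CT12. KO mice stood at 20.04, 31.1 and 22.8 at CT0 and 44.4, 50.3 and 42.5 at CT12. The highest KO mouse lay below the lowest WT mouse, and KO reached 0.318 of the WT mean at CT0 and 0.416 at CT12. The log2 difference was -1.61 (-1.98 to -1.24, adjusted p = 0.00052) at CT0, -1.25 (-1.62 to -0.88, adjusted p = 0.00058) at CT12 and -1.43 (-1.70 to -1.17, adjusted p = 1.7e-05) over both times, and these calls were kept under every alternative tried. It was also the 1 gene of the list that changed with time in KO, by 0.89 (0.51 to 1.26, adjusted p = 0.024). In WT the change was 0.53 (0.15 to 0.90, adjusted p = 0.070), and the interaction of 0.36 did not pass (adjusted p = 0.60). The call with time in KO was lost without KO CT0 replicate 1 or 3 or KO CT12 replicate 1 or 2, and with only the 6 KO samples in the fit.

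Its inducible neighbours Saa1 and Saa2, the serum amyloid A proteins that rise with inflammation, varied too much between mice for a call. Saa1 was 504.3, 71.8 and 277.1 RPKM in WT at CT0, 71.3, 281.8 and 35.6 in WT at CT12, 73.1, 47.6 and 41.2 in KO at CT0, and 87.7, 38.5 and 36.7 in KO at CT12. Saa2 followed it, with 197.5, 28.8 and 75.4, then 24.8, 125.5 and 7.95, then 32.0, 20.6 and 12.0, and then 27.1, 14.7 and 13.4. The 3 highest values of each gene were in WT mice, and the WT and KO ranges overlapped at both times. At CT0 the log2 difference of Saa1 was -2.02, with an interval from -3.66 to -0.39 that left 0 out, yet it did not pass the adjusted threshold (adjusted p = 0.23). At CT12 it was -0.84 (-2.47 to 0.80, adjusted p = 0.55). Saa2 differed by -1.87 (-3.71 to -0.03, adjusted p = 0.34) and -0.73 (-2.57 to 1.10, adjusted p = 0.65), and without WT CT12 replicate 2 its CT12 difference was 0.29. Saa1 and Saa2 are near copies of each other, and reads may have been split between them.

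Orosomucoid, a carrier of the acute phase, also set single mice apart. Orm1 was 1505 RPKM in WT CT0 replicate 1 beside 875.1 and 901.1 in its group, 872, 901.0 and 677 in WT at CT12, 1021, 861 and 938 in KO at CT0, and 1240.0 in KO CT12 replicate 1 beside 828 and 893. Orm2, its close copy, was 208, 54.4 and 47.8 in WT at CT0 and 158, 32.0 and 64.3 in KO at CT12. Replicate 1 was thus the highest of both genes in these groups, and the ranges of Orm1 in WT and KO overlapped at both times. Hp, which encodes the hemoglobin scavenger haptoglobin, was 2890, 1777 and 2025 RPKM in WT at CT0, 1531, 1621 and 1383 in WT at CT12, 1814, 1867 and 1861 in KO at CT0, and 2082, 1478 and 1851 in KO at CT12. Its WT groups did not overlap, but the fall of 0.53 (-0.90 to -0.17) did not pass (adjusted p = 0.062), and over both times the genotypes differed by 0.00 (-0.26 to 0.26). Hpx, the heme scavenger, had its highest value in WT CT0 replicate 1 as well (5292 RPKM beside 3271 and 3098).

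**Figure D4:**
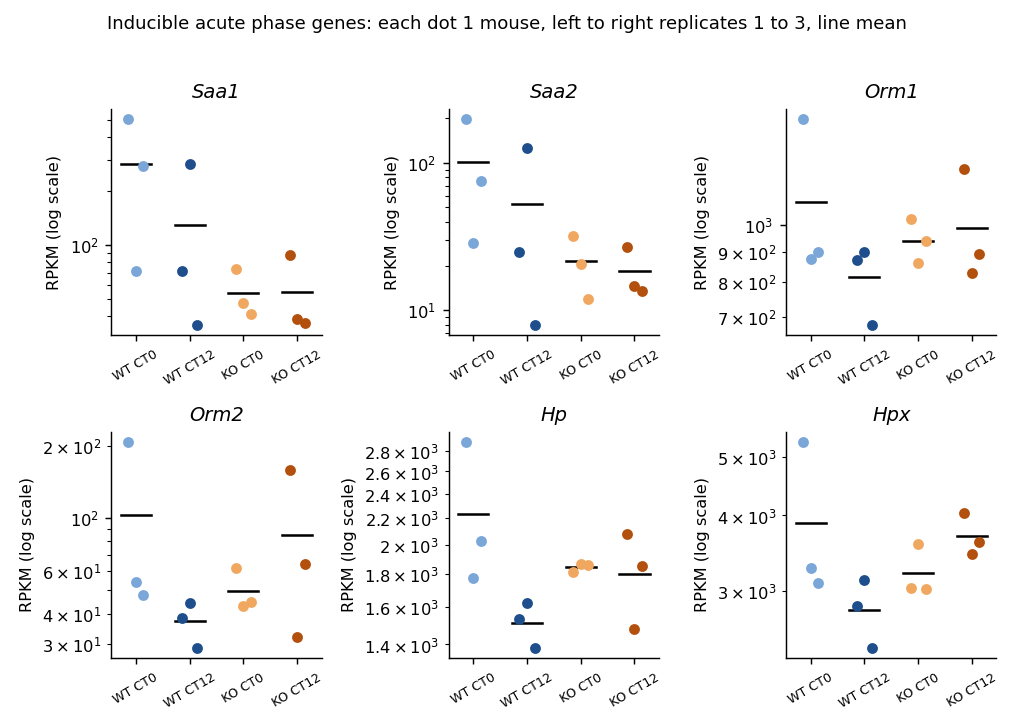
RPKM on a log axis of Saa1, Saa2, Orm1, Orm2, Hp and Hpx in the 4 groups, with a dot per mouse (replicates 1 to 3 from left to right) and a line at the mean. WT CT0 replicate 1 is the highest library for all 6 genes, and Saa1 spans 71.8 to 504.3 RPKM within WT at CT0.

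The pentraxins, which bind microbes and cell debris, both fell with time in WT. Apcs, which encodes serum amyloid P component, was 132.6, 79.8 and 86.1 RPKM in WT at CT0 and 43.2, 53.0 and 55.9 at CT12. KO mice stood at 86.6, 112.6 and 112.5 at CT0 and 188.8, 112.0 and 119.9 at CT12. The WT CT12 mice lay below all other mice. Apcs fell in WT by 0.93 (adjusted p = 0.020), was 2.77 times the WT mean in KO at CT12 (log2 difference 1.42, 0.94 to 1.90, adjusted p = 0.0015) and was close to WT at CT0 (0.09, -0.39 to 0.57, adjusted p = 0.90). The interaction of 1.33 (0.65 to 2.01) missed the threshold (adjusted p = 0.065). The call at CT12 was kept under every alternative, while the fall in WT was lost without WT CT0 replicate 1 or WT CT12 replicate 1. Crp, C-reactive protein, which is a minor acute phase protein in the mouse, fell in WT by 0.44 (adjusted p = 0.013), from 119 ± 6.33 to 87.8 ± 9.39 RPKM, and was 104 ± 7.87 and 103 ± 4.76 in KO.

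The heavy chains of inter-alpha-inhibitor, some of which are coupled to hyaluronan in the extracellular matrix, were mostly higher in KO. At CT12, 3 of 4 passed (Itih1, Itih2 and Itih3), beside 6.97% of all genes and 12.9% of the abundant ones that were higher. The same 3 passed over both times, beside 7.44% and 15.0%. Itih3 was 1111, 800.0 and 792 RPKM in WT at CT0 and 634, 606 and 611 at CT12, and in KO 949, 1277 and 1243 at CT0 and 1582, 1123 and 1274 at CT12. The KO and WT mice overlapped at CT0 and were separate at CT12, where the log2 difference was 1.09 (0.73 to 1.44, adjusted p = 0.0011). Itih1 differed by 0.76 at CT12 (adjusted p = 0.00051) and 0.57 over both times (adjusted p = 0.00032), and Itih2 by 0.48 (adjusted p = 0.0042) and 0.36 (adjusted p = 0.0026). Itih4, which lies with Itih1 and Itih3 on chromosome 14, differed by 0.06 over both times (-0.15 to 0.27) and by 0.30 at CT12 (0.00 to 0.60, adjusted p = 0.20). Itih1 also fell with time in WT, by 0.39 (adjusted p = 0.028), a call lost without WT CT0 replicate 1 or 2 or any 1 of the WT CT12 libraries, and with quantile or median-of-ratios scaling. At CT0 none of the 4 passed.

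The 3 fibrinogen chains moved together. Fgg, Fga and Fgb lie side by side on chromosome 3 (chr3:82811781-82818975, chr3:82830075-82838036 and chr3:82846169-82853725, NCBIM37) and encode the chains that assemble into fibrinogen. Fga was 2573, 2088 and 2131 RPKM in WT at CT0 and 1408, 1287 and 1169.8 at CT12. KO mice stood at 1463, 2013 and 1943 at CT0 and 3030.5, 1926 and 2199 at CT12. Fgb was 4414, 3295 and 3325 in WT at CT0, 2565, 2233 and 2007 in WT at CT12, 2439, 3637 and 3249.8 in KO at CT0, and 5186, 3478 and 3982 in KO at CT12. For both genes every WT CT12 mouse lay below every WT CT0 mouse and below every KO CT12 mouse. Fgg was 3825, 3013 and 3170.3 in WT at CT0, 1945, 1799 and 1723 in WT at CT12, 2292, 3246 and 3046 in KO at CT0, and 4258, 2892 and 3227 in KO at CT12, with the same separation.

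In WT the chains fell from CT0 to CT12 by 0.81 for Fga (adjusted p = 0.011), 0.69 for Fgb (adjusted p = 0.034) and 0.87 for Fgg (adjusted p = 0.0060), to 0.569, 0.617 and 0.546 of their CT0 means. In KO the changes were 0.39 (0.01 to 0.76), 0.44 (0.03 to 0.85) and 0.27 (-0.09 to 0.63), none past the threshold (adjusted p = 0.24, 0.22 and 0.39). At CT12 KO exceeded WT by 0.87, 0.88 and 0.91 on the log2 scale (adjusted p = 0.0071, 0.010 and 0.0040), and at CT0 it differed by -0.33, -0.25 and -0.23 (adjusted p = 0.42, 0.61 and 0.59). The interaction passed for Fga (1.20, 0.67 to 1.73, adjusted p = 0.032) and Fgg (1.14, 0.63 to 1.64, adjusted p = 0.033) and not for Fgb (1.13, 0.56 to 1.70, adjusted p = 0.064). The higher levels in KO at CT12 were kept without any 1 library. The fall of Fgb in WT was lost without any 1 WT CT0 library or without WT CT12 replicate 2 or 3, and also without a filter or with median-of-ratios scaling.

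**Figure D5:**
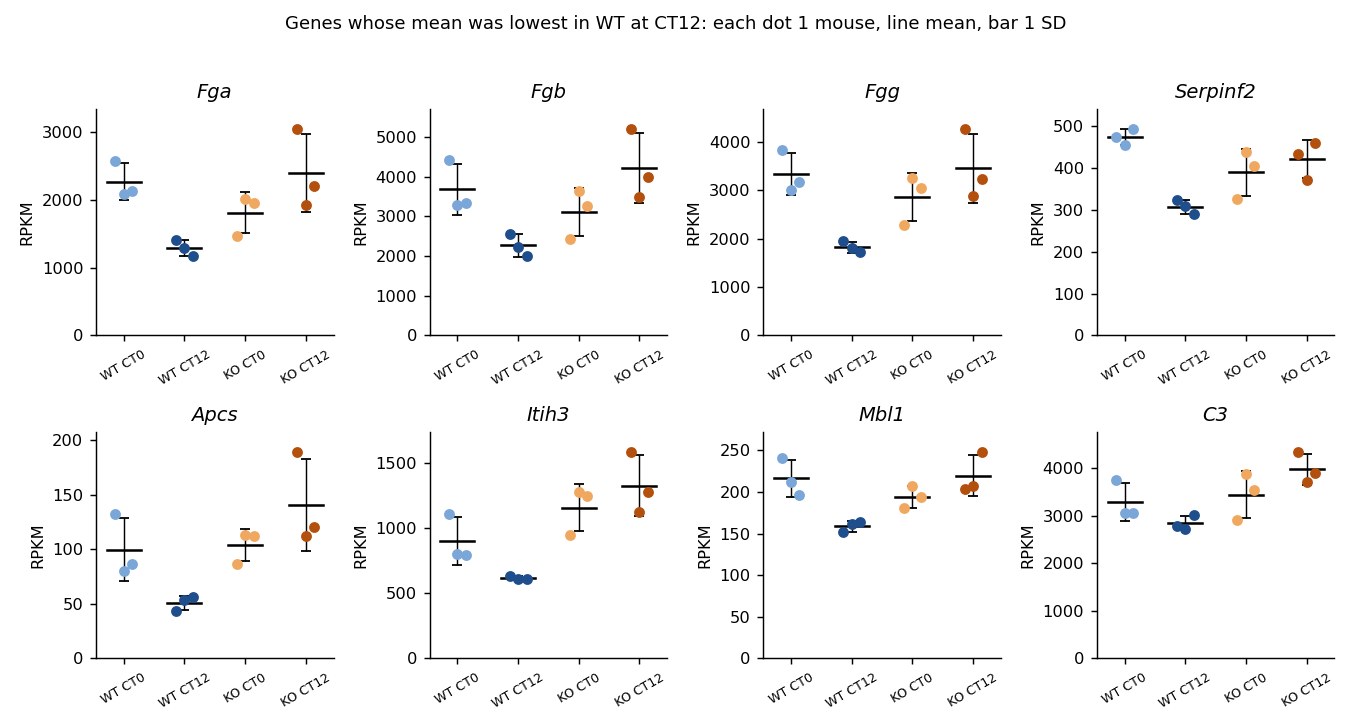
RPKM (vertical axis, starting at 0) of Fga, Fgb, Fgg, Serpinf2, Apcs, Itih3, Mbl1 and C3 in the 4 groups, with a dot per mouse, a line at the mean and a bar of 1 SD. The 8 genes were drawn as ones whose mean was lowest in WT at CT12, for example 1288 RPKM for Fga beside 2264, 1806 and 2385. That they share this is thus not a result.

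Of the other 9 genes of this system, 2 passed in at least 1 contrast, beside 21.4% of all genes and 35.6% of the abundant ones. F2, which encodes prothrombin, was higher in KO over both times by 0.21 (adjusted p = 0.020) and at CT12 by 0.24 (adjusted p = 0.049). The call at CT12 was lost under 21 of 25 alternatives, among them leaving out any 1 of 11 libraries (all but KO CT0 replicate 1), and the call over both times without WT CT0 replicate 2 or 3, and both with median-of-ratios scaling. Plg, the precursor of plasmin, was higher by 0.37 over both times (adjusted p = 0.0068) and by 0.48 at CT12 (adjusted p = 0.012, or 0.063 with median-of-ratios scaling). F5, F7, F9, F10, F11, F12 and Kng1 passed in none of the 6 contrasts, and their differences over both times ran from -0.11 for F5 and F7 to 0.15 for F12. The interval was narrowest for F9, the gene of the factor lacking in hemophilia B (-0.04, -0.16 to 0.08).

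Beside 21.4% of all genes and 35.6% of the abundant ones, 1 of the 5 inhibitors passed in at least 1 contrast, Serpinf2. Its mean was lowest in WT at CT12, as for the fibrinogen chains, but highest in WT at CT0, where theirs were highest in KO at CT12. It encodes alpha-2-antiplasmin, the serpin that stops plasmin. Its RPKM was 473, 453 and 491 in WT at CT0, 322, 309.6 and 289 in WT at CT12, 326, 436 and 403 in KO at CT0, and 431, 372 and 459 in KO at CT12. The WT CT12 mice lay below all others. Serpinf2 fell with time in WT by 0.62 (0.37 to 0.87 in size, adjusted p = 0.0052), was higher in KO at CT12 by 0.45 (adjusted p = 0.027), and had an interaction of 0.74 (0.39 to 1.09, adjusted p = 0.047). Between genotypes at CT12 it no longer passed without replicate 2 or 3 of WT CT12 or replicate 1 or 3 of KO CT12, or with median-of-ratios scaling. The antithrombin gene Serpinc1 differed by 0.16 over both times (0.05 to 0.28, adjusted p = 0.074), and the heparin cofactor Serpind1 by 0.02 (-0.11 to 0.15). Proc and Pros1, protein C and its cofactor protein S, differed by -0.16 (-0.30 to -0.02, adjusted p = 0.13) and 0.01 (-0.15 to 0.16).

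The interaction calls depended on single libraries. Of the 3 calls, 0 were left when any 1 WT library, KO CT0 replicate 1 or 3, or KO CT12 replicate 3 was left out, 1 (Fga) was left without KO CT12 replicate 1, and 0 were left without a filter or with median-of-ratios scaling, and 1 was left with quantile normalization. The estimates stayed positive throughout, from 0.92 to 1.34 for Fga, 0.87 to 1.26 for Fgg and 0.62 to 0.83 for Serpinf2. Neutrophil markers moved with genotype and, in both genotypes, with time. Of the 4 tested, 0 passed in the interaction, beside 1.07% of all genes in the positive direction and 0.417% in the negative. The summed RPKM of 5 neutrophil markers was 29.0 to 98.9 in WT at CT0, 5.27 to 7.68 in WT at CT12, 91.6 to 197 in KO at CT0 and 16.6 to 40.6 in KO at CT12. Kupffer cell markers were at 121 to 163, 77.5 to 117, 109 to 162 and 81.2 to 147 in the same order, endothelial markers at 78.8 to 97.4, 52.7 to 62.8, 90.3 to 103 and 44.0 to 103, red cell markers at 117 to 275, 82.4 to 145, 153 to 157 and 167 to 213, and hepatocyte markers at 12200 to 12800, 13500 to 14600, 12100 to 13300 and 13800 to 15100. The part of these cells in the results was not tested.

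Of the 11 complement genes, 2 were higher and 1 lower in KO at CT0, and 4 were higher at CT12, beside 1.02%, 0.843% and 6.97% of all genes. C9, whose product polymerises into the membrane pore, was 344.6, 234.7 and 229.2 RPKM in WT at CT0 and 278.5, 254.5 and 202.5 at CT12. KO mice stood at 429.5, 480.8 and 512.5 at CT0 and 554.9, 623.2 and 521.8 at CT12. Every KO mouse exceeded every WT mouse, by 1.76 times in the mean at CT0 and 2.31 times at CT12. The log2 difference was 0.84 (0.48 to 1.19, adjusted p = 0.025) at CT0, 1.21 (0.86 to 1.57, adjusted p = 0.00049) at CT12 and 1.02 (0.78 to 1.27, adjusted p = 0.00013) over both times. The values are those of a processed transcript of 543 bases, and the coding row of 1773 bases had a mean of 377 RPKM beside 389. At CT0 the call needed every library of replicates 2 and 3 at that time (it was lost without WT CT0 replicate 2 or 3 or KO CT0 replicate 2 or 3) and the filter, and the other calls were kept under every alternative.

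C8 is built from 3 chains, and they differed among themselves. C8g, the lipocalin-like gamma chain, was higher in KO by 0.36 at CT0 (adjusted p = 0.043), 0.47 at CT12 (adjusted p = 0.0024) and 0.42 over both times (0.30 to 0.54, adjusted p = 0.00048). The call at CT0 was lost without any 1 of 10 libraries (all but WT CT12 replicate 2 and KO CT12 replicate 3) and without a filter. C8a and C8b, which lie next to each other on chromosome 4, did not pass, with -0.44 (-0.81 to -0.07, adjusted p = 0.12) and -0.17 (-0.48 to 0.14) over both times. KO CT0 replicate 1 was the lowest library for both, at 138.4 RPKM for C8a and 144.6 for C8b. C6, another part of the pore, ranged from 47.3 to 151.5 RPKM over the 12 mice and differed by -0.18 (-0.74 to 0.37).

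C3, the protein at which the complement pathways meet, was 3761, 3062 and 3063 RPKM in WT at CT0, 2789, 2729 and 3010.4 in WT at CT12, 2901, 3882 and 3545 in KO at CT0, and 4337, 3702 and 3904 in KO at CT12. The row kept for C3 was not in the annotation that gave the lengths. The coding row of 5132 bases had a mean of 2388 RPKM beside 3391. The groups overlapped at CT0 and were separate at CT12, where KO was higher by 0.48 (0.21 to 0.76, adjusted p = 0.029). This call was lost without any 1 WT CT12 library, without KO CT12 replicate 1 or 3, without a filter, and with quantile or median-of-ratios scaling. Cfb, factor B of the alternative pathway, was the complement gene that fell. It was 843, 800.5 and 774 in WT at CT0, 778, 760.3 and 693 in WT at CT12, 609, 652 and 579 in KO at CT0, and 582, 619.6 and 654 in KO at CT12, so that every KO mouse lay below every WT mouse. The log2 difference was -0.39 (-0.58 to -0.21, adjusted p = 0.039) at CT0, -0.27 (-0.45 to -0.08, adjusted p = 0.068) at CT12 and -0.33 (-0.46 to -0.20, adjusted p = 0.0036) over both times. The call at CT0 was lost without any 1 of 8 libraries (each WT CT0 library, WT CT12 replicates 1 and 2, KO CT0 replicates 1 and 3, and KO CT12 replicate 2) and without a filter. Exons of the locus Gm20547 on the same strand covered 94.5% of the Cfb row, so these reads cannot be told apart between the pair.

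Mannose-binding lectins recognise sugars on microbes and start the lectin pathway. Mbl1 fell with time in WT by 0.44 (adjusted p = 0.018), from 216 ± 22.3 to 158.7 ± 6.32 RPKM, and was higher in KO at CT12 by 0.46 (adjusted p = 0.013), with an interaction of 0.62 (0.30 to 0.93, adjusted p = 0.064). The fall in WT was lost without WT CT0 replicate 1 or 2 or WT CT12 replicate 1, and both calls with median-of-ratios scaling. Mbl2 differed by -0.05 over both times (-0.20 to 0.10) and by 0.10 with time in WT (-0.11 to 0.31). The regulators C4bp and Cfi, which break down C4b and C3b, differed by 0.16 (0.01 to 0.31, adjusted p = 0.16) and 0.03 (-0.12 to 0.18).

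Other genes of these systems were read from a list of 69, of which 60 could be tested. Of 25 further acute phase and inhibitor genes, 23 could be tested, and 3 were higher and 1 lower in KO at CT12, beside 6.97% and 3.49% of all genes. Over both times 4 were higher (Cp, Lbp, Mug2 and Pon1) and 3 lower (Orm3, Serpina1e and Serpina6), beside 7.44% and 4.03%. At CT12 the ferroxidase ceruloplasmin gene Cp was higher in KO by 1.03 (adjusted p = 7.7e-05) and the protease inhibitor Mug2 by 1.23 (adjusted p = 0.00023). The endotoxin-binding Lbp was higher at CT12 by 0.95 (adjusted p = 0.0018). Cp, Mug2 and Lbp all fell with time in WT (by 0.47, 0.69 and 0.67). Serpina6, which carries glucocorticoids, was 1.95 lower on the log2 scale in KO at CT12 (adjusted p = 1.6e-05) and rose with time in WT by 1.25. The interaction passed for Lbp (1.04, adjusted p = 0.035) and Serpina6 (-1.38, adjusted p = 0.012). Of 10 further coagulation genes tested, 1 (F8) was higher over both times by 0.32 (adjusted p = 0.031), beside 7.44% of all genes. With time in WT, 1 (Ggcx) fell, beside 7.88% of all genes.

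Of 16 further complement genes tested, 2 were higher in KO at CT12 (C4b by 0.46 and Hc by 0.45) and 1 lower (C1s by 0.43), beside 6.97% and 3.49% of all genes and 12.9% and 7.74% of the abundant ones. Hc encodes C5. C2 passed at CT0 (-0.41, adjusted p = 0.038), but the row kept for C2 tracked that of Cfb, its neighbour, at 851 beside 843 RPKM in WT CT0 replicate 1 and 664 beside 654 in KO CT12 replicate 3. Of 11 regulators of these genes tested, 1 (Cebpa) was lower in KO at CT12, by 0.41 (adjusted p = 0.027), beside 3.49% of all genes. Over both times 2 were lower (Cebpa and Il6ra) and 0 higher, beside 4.03% and 7.44% of all genes. With time in WT, 3 of the 11 rose (Cebpb, Il1r1 and Il6ra) and 1 fell (Stat3), beside 3.71% and 7.88% of all genes. Il6ra and Il1r1, receptors of the acute phase cytokines, rose from CT0 to CT12 in WT by 1.33 and 0.92 and in KO by 1.44 and 1.46. Cebpb was 4.64, 4.51 and 4.49 RPKM in WT at CT0 and 9.48, 9.69 and 10.31 at CT12. Stat3 fell in WT by 0.51 (adjusted p = 0.035). Dbp, read to check the time labels, rose from CT0 to CT12 by 3.59 in WT and 1.19 in KO, and was lower in KO at CT12 by 2.0 (adjusted p = 0.00049).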

How the data were processed

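Liver RNA-seq of 12 mice was read from 1 deposited table per sample. The authors deposited RPKM values for 46585 Ensembl transcripts. Submitters' notes name TopHat2, bedtools 2.19.1 and mm9, without roles; the annotation release and the treatment of reads shared between transcripts are not given in the sources used here. Groups and replicates came from sample titles. The treatment text mentions 2 mice per genotype, while 3 samples per group were deposited.

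The transcript row of highest mean was kept per symbol (22322), and the 10799 genes that reached 1 RPKM in the mean of a group were tested. With limma 3.58.1 (R 4.3.3), group means of log2(RPKM + 1) were modelled, with Benjamini-Hochberg adjustment over tested genes and a threshold of 0.05. Fold changes on this scale understate changes of low genes. RPKM divides by all reads, so a change in Alb can shift other genes. Lengths and positions came from GENCODE vM1 (NCBIM37), and depth from steps of the low values, of which 95.6% to 96.3% were whole within 0.05 reads. For 24 members several rows existed. On simulated data, a log2 change of 1 was recovered in 196 of 200 genes for genotype over both times and 177 of 200 at CT12, and one of 0.5 in 120 and 59.

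Full values were given for members past the interaction threshold, the 4 largest called differences of each other contrast, and Alb, Fgb, C3, Hp, Saa1, Saa2 and Orm1. Members and lists were chosen with earlier results of these data known. Alternatives were another pseudocount (0.1), other filters, scalings and transcript rows, an unmoderated model, a replicate block, only the groups compared, a log2 limit of 1, and leaving out each library. C4a, Cebpd and Adgre1 were not analysed here. Plots used Python 3.11.15 and matplotlib 3.10.9.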

Additional observations from a re-analysis of the deposited data

Results flagged for a closer look

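The interaction term of the limma model passed for 3 of the 52 plasma protein genes: Fga with 1.20 on the log2 scale, Fgg with 1.14 and Serpinf2 with 0.74. In that direction it passed for 1.07% of all genes and 2.11% of the abundant ones. Without a filter or with median-of-ratios scaling 0 of the 3 were left, and 1 with quantile normalization. The call of Fga was lost without any 1 of 9 libraries, and those of Fgg and Serpinf2 without any 1 of 10. Among the further genes read, the interaction passed for Lbp (1.04) and Serpina6 (-1.38), and for the clock genes Arntl (2.50) and Dbp (-2.41). Groups of 3 were too small for a test of outlying mice.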

How the results depend on the processing

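Of 51 called differences of single members, 7 were kept under all 24 or 25 alternatives (Saa4 between genotypes at CT0, at CT12 and over both times, C9 at CT12 and over both times, and Apcs and Itih3 at CT12), 19 were lost only with a log2 limit of 1, and 0 changed sign. Saa2 at CT12, which was not called, lay between -1.62 and 0.29 when 1 library was left out, and reversed from -0.73 to 0.29 without WT CT12 replicate 2. With a log2 limit of 1, 2 of 14 members were called between genotypes over both times, 1 of 5 at CT0, 5 of 18 at CT12, 0 of 10 with time in WT and 0 of 1 with time in KO. Unmoderated, unadjusted p-values gave 18 at CT0, 22 with time in WT, 7 with time in KO and 14 interactions. Without a filter 1 member was called at CT0 and 0 in the interaction. The interaction gave 1 with quantile normalization and 0 with median-of-ratios scaling. With only the samples compared, 2 were called at CT0 and 0 with time in KO. The cause of these shifts was not tested.

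The replicate numbers did not pair the samples: deviations of same-numbered samples correlated at 0.008 on average (-0.066 to 0.139), and 6 of 12 samples correlated best with their own number. The replicate block gave 3 members at CT0 and 0 in the interaction. Leaving out each library gave 12 to 16 members over both times, 2 to 5 at CT0, 15 to 19 at CT12, 5 to 13 with time in WT, 0 to 2 with time in KO and 0 to 3 in the interaction. At CT0 the count was 3 without WT CT0 replicate 1, WT CT12 replicate 1 or KO CT12 replicate 2, and 2 without WT CT0 replicate 2 or 3 or KO CT0 replicate 3. With time in WT it was 5 without WT CT0 replicate 1 or WT CT12 replicate 1, and 6 without WT CT0 replicate 2 or WT CT12 replicate 2 or 3. With time in KO it was 0 without KO CT0 replicate 1 or 3 or KO CT12 replicate 1 or 2, and 2 without KO CT0 replicate 2. Leaving out WT CT0 replicate 1 and KO CT12 replicate 1 together, the libraries with the highest Orm2 of their groups (chosen after seeing the data), gave 3 members at CT0, 5 with time in WT, 0 with time in KO and 0 in the interaction, with 14 at CT12.

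Over all genes called at CT12, 753 were higher and 377 lower in KO, but 550 and 503 with quantile normalization and 485 and 591 with median-of-ratios scaling, where 15 and 3, and 10 and 4 members were called. Over both times the split of 803 and 435 became 655 and 596, and 614 and 637. With time in WT, 401 and 851 became 575 and 593, and 736 and 576. The members' share of RPKM in WT at CT12 was 17.86% and moved to 18.58% with the mean over transcript rows. Leaving out 1 library gave 20.08% to 21.33% in WT at CT0, 17.69% to 18.11% in WT at CT12, 16.05% to 17.67% in KO at CT0 and 16.55% to 17.55% in KO at CT12. With 3 mice per group, changes under 0.5 on the log2 scale are often missed.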
